A study of Homo sapiens with 6 samples.

Results

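Kelch-like proteins and F-box proteins are the substrate-binding adaptors of cullin-RING ubiquitin ligases, and their messenger RNAs were followed on ribosomes of breast cancer cells given 2 growth signals. Members were the genes whose symbols begin with KLHL, FBXO, FBXL or FBXW followed by a digit. Of 101 such symbols among 21619 genes, 2 hyphenated symbols and 2 pseudogenes were left out, which left 97 members. There were 34 kelch-like genes and 63 F-box genes, the latter made up of 37 FBXO, 17 FBXL and 9 FBXW genes. The cells were MDA-MB-231, an established line derived from a triple-negative human breast cancer, and they carried ribosomal protein L10a fused to EGFP. Tagged ribosomes were pulled down with an antibody to GFP, a method called translating ribosome affinity purification, so the counts are of polyadenylated RNA bound to ribosomes. All cultures were kept for 24 h in 0.2% serum. They were then left untreated (CXCL12 and IGF1 both at 0 ng/mL), or received CXCL12 at 30 ng/mL with IGF1 at 10 ng/mL (the lower dose) or CXCL12 at 300 ng/mL with IGF1 at 100 ng/mL (the higher dose) for 6 h. CXCL12 is a chemokine that signals through CXCR4, and IGF1 is a growth factor that signals through its receptor tyrosine kinase. The factors were always given together, so their separate effects cannot be told apart. Each condition had 2 biological replicates, named a and b, and what separated them is not given in the sources used here, so the p-values measure the spread between these libraries.

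A cullin-RING ligase joins a cullin scaffold, a RING protein that recruits a ubiquitin-conjugating enzyme, and an exchangeable adaptor that picks the protein to be marked. Kelch-like proteins bind the scaffold CUL3 through a BTB domain and hold the substrate with a propeller of kelch repeats. F-box proteins bind CUL1 through SKP1, and are sorted by their substrate-binding part into FBXW (WD40 repeats), FBXL (leucine-rich repeats) and FBXO (other domains). The ligases are switched on by attaching NEDD8 to the cullin and switched off by the COP9 signalosome, and CAND1 helps to exchange the adaptors. Some adaptor genes respond to growth signals: FBXO32, also called atrogin-1, is a textbook target of the FOXO factors in muscle, which signalling from the IGF1 receptor holds out of the nucleus.

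Promoters of 3 members are shown for what the text returns to. KLHL24 had the widest change of any member, and FBXL2 and FBXO8 both fell at the higher dose and carry a motif that was searched for. For KLHL24 the window runs from 250 bases before to 50 bases after the annotated start (RefSeq, GRCh38, chr3:183635373-183635672, plus strand), and neither motif was found in it. For FBXL2 (chr3:33277192-33277491, plus strand) and FBXO8 (chr4:174283618-174283917, minus strand), 60 bases of the same kind of window are given, with the motif in capitals.
KLHL24: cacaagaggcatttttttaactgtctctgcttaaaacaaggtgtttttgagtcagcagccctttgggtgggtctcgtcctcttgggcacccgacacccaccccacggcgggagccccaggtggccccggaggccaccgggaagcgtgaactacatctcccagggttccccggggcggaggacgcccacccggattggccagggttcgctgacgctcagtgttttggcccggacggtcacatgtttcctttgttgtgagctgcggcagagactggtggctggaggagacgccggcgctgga
FBXL2: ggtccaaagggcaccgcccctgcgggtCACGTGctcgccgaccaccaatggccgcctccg
FBXO8: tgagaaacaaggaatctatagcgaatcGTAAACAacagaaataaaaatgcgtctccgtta
The motif in FBXL2 is the E-box CACGTG, which starts 70 bases before the annotated start and reads the same on both strands. That in FBXO8 is the forkhead motif GTAAACA, which starts 61 bases before it. Windows were found for 79 of the 97 members. On either strand, GTAAACA was in 4.19% of the 27305 genes with a window and in 2 of the 79 members, FBXO8 and KLHL3. The E-box was in 8.77% of those genes and in 8 members, of which FBXL2, FBXW4 and FBXW8 fell and FBXL19 rose at the higher dose. FBXL5 and KLHL22 did not pass the test there, and KLHL30 and KLHL32 were too low to be tested. The higher-dose call of FBXO8 (−0.17 on the log2 scale) was lost by DESeq2 and without untreated replicate b (−0.12) or higher-dose replicate a (−0.13). The calls of FBXW4 (−0.13) and FBXL19 (0.15) were lost by DESeq2 and when 1 library was left out. That of FBXW4 was also lost with offsets for transcript length and GC content (−0.11). FBXW4 gave −0.14 to −0.13 without either untreated or either higher-dose library, and FBXL19 gave 0.08 without untreated replicate a and 0.12 without higher-dose replicate a. FBXW4, FBXL19, KLHL30 and KLHL32 are named here after their values were seen.

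The 6 libraries held between 26255079 and 30280322 reads on genes. Vimentin (VIM, 2680 to 3748 CPM, counts scaled to the size of the library), CD44, AXL and CAV1 were abundant, as is known for this mesenchymal-like line. The epithelial and hormone receptor genes CDH1, ESR1 and PGR were at or below 0.450 CPM. SPARC, listed with the mesenchymal markers, was at 0.165 to 0.390 CPM, which goes against that list. Markers of other cell types were low: PTPRC of leukocytes reached 0.532 CPM, PECAM1 of endothelium 1.94 CPM and COL1A1 of fibroblasts 7.20 CPM, with COL1A2, DCN and ADIPOQ at or below 0.114 CPM. After the filter on low counts 13548 genes were tested, among them 23 kelch-like and 55 F-box genes. The 78 tested members are therefore not all members, and the other 19 had at most 11 reads in any library.

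The summed level of the kelch-like genes was lower at the higher dose, and that of the F-box genes was not. Summed over the 34 kelch-like genes, the level was 476.1 and 476.1 CPM untreated, 463.6 and 465.0 CPM at the lower dose and 430.4 and 434.4 CPM at the higher dose. The higher-dose libraries lay lowest and did not overlap the others. Summed over the 63 F-box genes, it was 1617 and 1637 CPM untreated, 1656 and 1645 CPM at the lower dose and 1637 and 1632 CPM at the higher dose. The lower-dose pair lay highest, and the higher-dose pair lay within the range of the untreated pair. Between untreated and higher-dose cells the kelch-like sum fell by 43.7 CPM, a figure with no test, and KLHL5 with a drop of 24.1 CPM and KLHL24 with one of 13.4 CPM made up most of it. Both families together stood at 2093 and 2113 CPM untreated, 2119 and 2110 CPM at the lower dose and 2067 and 2066 CPM at the higher dose, where the pair also lay below the other 4. The libraries are of bulk cultures without total RNA, so fewer cells carrying a transcript, less of it in each cell and weaker ribosome binding cannot be told apart.

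At the lower dose few members passed the test (edgeR's quasi-likelihood test, adjusted p under 0.05 over all genes tested). Of 23 kelch-like genes 1 rose and 1 fell, and of 55 F-box genes 9 rose and 3 fell, where 32.6% of all tested genes passed, 16.7% up and 15.9% down. That is 8.70% of the kelch-like and 21.8% of the F-box genes, both below the background. At the higher dose 2 kelch-like genes rose and 6 fell, or 34.8%, while 17 F-box genes rose and 15 fell, or 58.2%, beside a background of 56.3%, with 28.1% up and 28.2% down. The F-box share was near that of all genes, so it is not a result about the family. Between the higher and the lower dose 2 kelch-like genes rose and 4 fell, and 7 F-box genes rose and 13 fell, with a background of 34.0%, 16.4% up and 17.6% down. Members were somewhat less abundant than other tested genes: the median level was 14.5 CPM for kelch-like and 21.2 CPM for F-box genes, and 25.7 CPM over all. Among those with a mean of 10 CPM or more, a limit chosen after the values were seen, 2 of 14 kelch-like and 10 of 39 F-box genes passed at the lower dose, beside 43.2% of all such genes. At the higher dose 8 of the 14 and 27 of the 39 did, beside 69.0%, and between the doses 5 and 18, beside 44.5%.

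No family moved as a block. At the higher dose the median log2 fold change was −0.02 in kelch-like and −0.03 in F-box genes, beside −0.00083 over all tested genes. At the lower dose the medians were −0.03 and −0.0043, beside −0.0021. Called changes (adjusted p under 0.05) of 1.5-fold or more were few among the members and among all tested genes alike. Of the 78 tested members none had one at the lower dose, where 0.760% of all genes did, and 4 did at the higher dose, where 6.90% did. These 4 were KLHL24, FBXO25 and FBXL20, which fell, and FBXW7, which rose. Between the doses KLHL24 and KLHL23 reached it, beside 1.33% of all genes. Counts this small are not a result about the members. By DESeq2, 1 kelch-like and 5 F-box genes passed at the lower dose and 6 and 19 at the higher dose. The 19 F-box calls of DESeq2 were 7 rises and 12 falls, beside 17 and 15 in the main edgeR test. Other settings lay near an even split, such as 14 and 16 without TMM factors. A filter on a mean of at least 50 reads gave 17 and 16. No share of all genes is given for these settings or for those named next, so their counts have no background. With offsets for transcript length and GC content 1 kelch-like gene rose and 3 fell at the lower dose and 4 rose and 6 fell at the higher dose; at the lower dose RLE size factors gave 1 and 2.

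**Figure D1:**
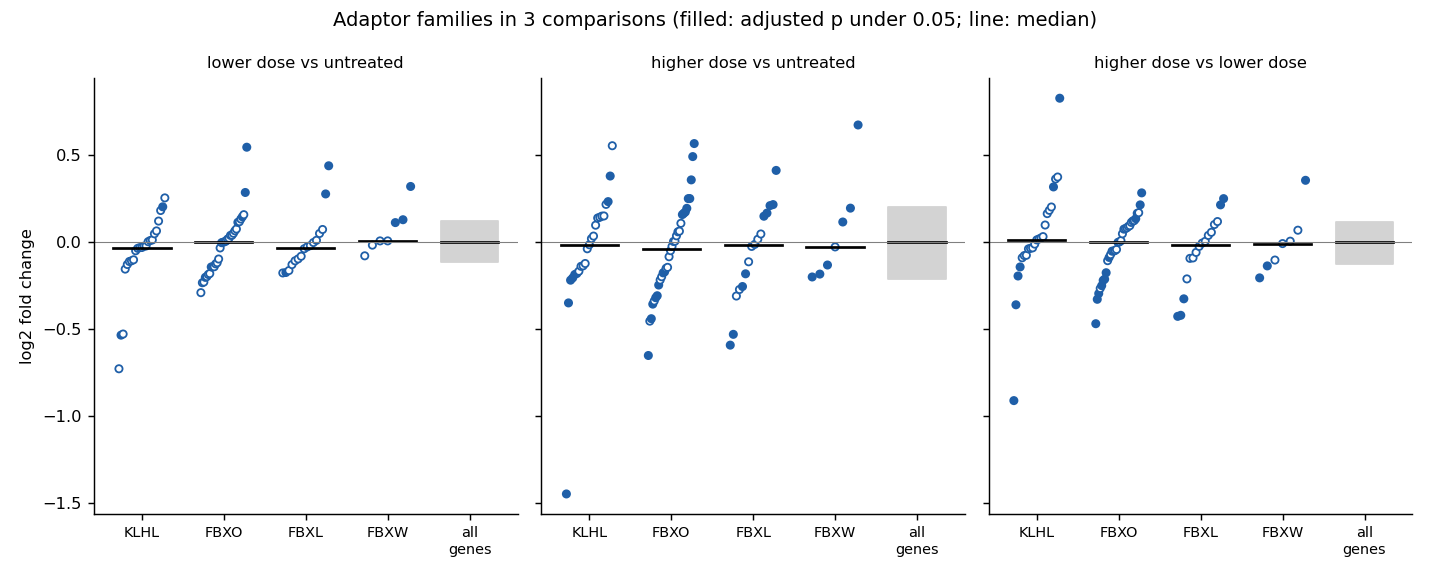
Log2 fold change of every tested member in 3 comparisons, by subfamily (points, ordered by value; filled where the adjusted p was under 0.05), with the median as a line and the middle 50% of all 13548 tested genes as a grey box. The medians lie close to 0 in each subfamily, and KLHL24 is the lowest point at the higher dose, at −1.45.

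KLHL24 had the largest change of all members at the higher dose. Its protein is a CUL3 adaptor known for marking keratin 14 in skin, where mutations that stabilise it cause a blistering disease. The level of KLHL24 was 21.2 and 21.0 CPM without factors, 14.7 and 14.4 CPM after the lower dose and 7.63 and 7.83 CPM after the higher. The 3 conditions did not overlap and lay in the order of the dose. KLHL24 fell by 0.54 ± 0.07 (SE) on the log2 scale at the lower dose (edgeR adjusted p = 1.16e-08) and by 1.45 ± 0.08 at the higher dose (adjusted p = 1.99e-22). Between the doses it fell by 0.91 ± 0.09 (adjusted p = 1.04e-12). All 3 calls were kept in each of the 16 other settings. The keratin itself, KRT14, had at most 2 reads in a library.

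KLHL5, the kelch-like gene with the highest level, changed only beyond the lower dose. Its level was 111.9 and 111.1 CPM untreated, 114.1 and 110.6 CPM at the lower dose and 84.73 and 90.03 CPM at the higher dose. The untreated and lower-dose libraries overlapped and both higher-dose libraries lay below them. KLHL5 fell by 0.35 ± 0.04 on the log2 scale against untreated cells (edgeR adjusted p = 1.94e-12) and by 0.36 ± 0.04 against the lower dose (adjusted p = 4.35e-12), while the lower dose itself gave 0.01 ± 0.03 (adjusted p = 0.852).

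KLHL18, an adaptor described for the mitotic kinase Aurora A, went the other way with the same shape. Its level was 27.8 and 29.1 CPM untreated, 29.9 and 29.7 CPM at the lower dose and 37.7 and 36.4 CPM at the higher dose. Both higher-dose libraries lay above the other 4. KLHL18 rose by 0.38 ± 0.05 against untreated cells (edgeR adjusted p = 1.76e-08) and by 0.32 ± 0.05 against the lower dose (adjusted p = 2.35e-06); at the lower dose the value was 0.06 ± 0.06 (adjusted p = 0.419). KLHL15, whose protein marks a regulatory subunit of the phosphatase PP2A, was at 12.4 and 13.4 CPM untreated, 15.2 and 14.6 CPM at the lower dose and 14.9 and 15.5 CPM at the higher dose. Its untreated libraries lay below the other 4. KLHL15 rose by 0.20 ± 0.08 at the lower dose (adjusted p = 0.0394) and 0.23 ± 0.08 at the higher dose (adjusted p = 0.00926). It did not pass at either dose by DESeq2 or without untreated replicate a, where the values were 0.15 and 0.18. Nor did it pass without lower-dose replicate a (0.17) or b (0.23), nor at the higher dose without higher-dose replicate b (0.20).

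Another 4 kelch-like genes fell at the higher dose by smaller steps. KLHL2, related to the WNK kinase adaptor KLHL3, was at 28.2 and 28.8 CPM untreated and 23.8 and 25.1 CPM at the higher dose, a fall of 0.22 ± 0.06 on the log2 scale (edgeR adjusted p = 0.00094). KLHL12, an adaptor for the coat protein SEC31 of secretory vesicles, went from 37.7 and 35.4 CPM to 32.6 and 30.5 CPM and fell by 0.21 ± 0.05 (adjusted p = 0.000784). KLHL4 went from 29.9 and 30.5 CPM to 26.07 and 26.96 CPM and fell by 0.19 ± 0.06 (adjusted p = 0.00343), a call that DESeq2 did not make. KLHL7, in which mutations cause retinitis pigmentosa, went from 34.88 and 34.98 CPM to 31.0 and 30.6 CPM and fell by 0.18 ± 0.05 (adjusted p = 0.00243). In these 4 genes the untreated and higher-dose libraries did not overlap, and at the lower dose none passed the test, with values from −0.13 to −0.02. KLHL12 was close to the threshold there (−0.13, edgeR adjusted p = 0.0512) and passed in 5 of 16 other settings, and KLHL4 passed with the length and GC offsets (−0.14, adjusted p = 0.0479).

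**Figure D2:**
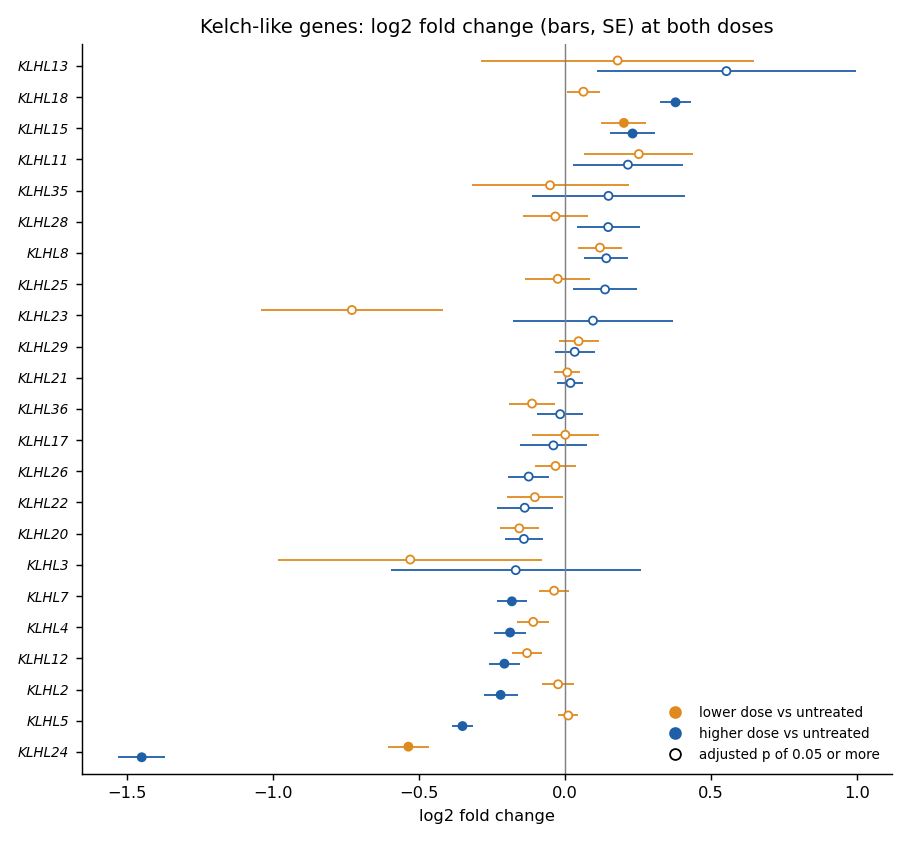
Log2 fold change (points) with its standard error (bars) for the 23 tested kelch-like genes at the lower dose (orange) and the higher dose (blue), each against untreated cells; open points had an adjusted p of 0.05 or more. KLHL24 lies apart at −0.54 and −1.45, and the widest bars belong to genes with few reads, such as KLHL13 and KLHL3.

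Of the kelch-like adaptors with described substrates, 5 others did not pass in any comparison. KLHL21, an adaptor of Aurora B in dividing cells, stood at 52.1 to 55.7 CPM over the 6 libraries and differed by 0.02 ± 0.04 at the higher dose. KLHL20, described for the death-associated kinase DAPK1 and for PML, was at 20.6 and 20.4 CPM untreated and 18.8 and 18.4 CPM at the higher dose, a difference of −0.14 ± 0.07 (edgeR adjusted p = 0.0647). KLHL22, described for the mTORC1 inhibitor DEPDC5, was at 8.42 to 10.5 CPM (−0.14 ± 0.10 at the higher dose). KLHL13 and KLHL3 were at 0.304 to 0.632 and 0.277 to 0.593 CPM. With standard errors of 0.44 and 0.43, differences of that order and larger ones could be missed at this depth. The offsets for length and GC content brought KLHL21 past the threshold at the higher dose (0.13) and KLHL20 at the lower dose (−0.17).

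KLHL23 was the other kelch-like gene with a called change of 1.5-fold or more, which was between the doses. It had 30 and 27 reads untreated, 18 and 17 at the lower dose and 30 and 31 at the higher dose. The lower-dose pair lay below the other 4 libraries. KLHL23 rose by 0.83 ± 0.31 from the lower to the higher dose (edgeR adjusted p = 0.0304). At the lower dose against untreated cells the value was −0.73 ± 0.31, also over 1.5-fold, but did not pass (adjusted p = 0.0646). The call between the doses was lost without lower-dose replicate a (0.87) or b (0.78) and without higher-dose replicate a (0.84) or b (0.81). Neither DESeq2 nor the filter on a mean of at least 50 reads called KLHL23 between the doses. The gene shares 7.61% of its exon bases with PHOSPHO2 on the same strand, and the joint transcript PHOSPHO2-KLHL23 is counted under its own symbol with at most 2 reads a library, so its reads are uncertain.

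Among F-box genes the widest rise was that of FBXW7, a tumour suppressor whose protein marks MYC, cyclin E, JUN and NOTCH for destruction. FBXW7 was at 7.80 and 9.13 CPM untreated, 10.4 and 10.8 CPM at the lower dose and 14.4 and 12.7 CPM at the higher dose. The conditions did not overlap and followed the dose. FBXW7 rose by 0.32 ± 0.10 at the lower dose (edgeR adjusted p = 0.00723) and by 0.67 ± 0.09 at the higher dose (adjusted p = 6.82e-09), and by 0.35 ± 0.09 between them (adjusted p = 0.000875). The lower-dose call was lost by DESeq2 and without untreated replicate a (0.21), and that between the doses without higher-dose replicate a (0.26). The higher-dose call was kept in each setting.

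FBXO45, which forms a ligase with the RING protein MYCBP2 in place of CUL1, rose in the same order. Its level was 38.2 and 41.0 CPM untreated, 48.3 and 48.3 CPM at the lower dose and 58.3 and 59.1 CPM at the higher dose, with no overlap between the conditions. FBXO45 rose by 0.28 ± 0.05 at the lower dose (edgeR adjusted p = 2.45e-06), by 0.56 ± 0.05 at the higher dose (adjusted p = 5.77e-16) and by 0.28 ± 0.04 between the doses (adjusted p = 6.1e-07). FBXO22, described for the histone demethylase KDM4A, was at 24.5 and 25.7 CPM untreated, 28.50 and 26.97 CPM at the lower dose and 32.1 and 32.1 CPM at the higher dose. It followed the dose as well, rising by 0.36 ± 0.06 at the higher dose (adjusted p = 2.85e-07). At the lower dose FBXO22 was just under the threshold, at 0.14 ± 0.06 (adjusted p = 0.0496), and 11 of 16 settings lost that call. These included leaving out untreated replicate a (0.11) or b (0.18), lower-dose replicate a (0.10) and either higher-dose library (0.14). Between the doses FBXO22 rose by 0.21 ± 0.06 (adjusted p = 0.00175), and the call was lost without lower-dose replicate b (0.17).

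**Figure D3:**
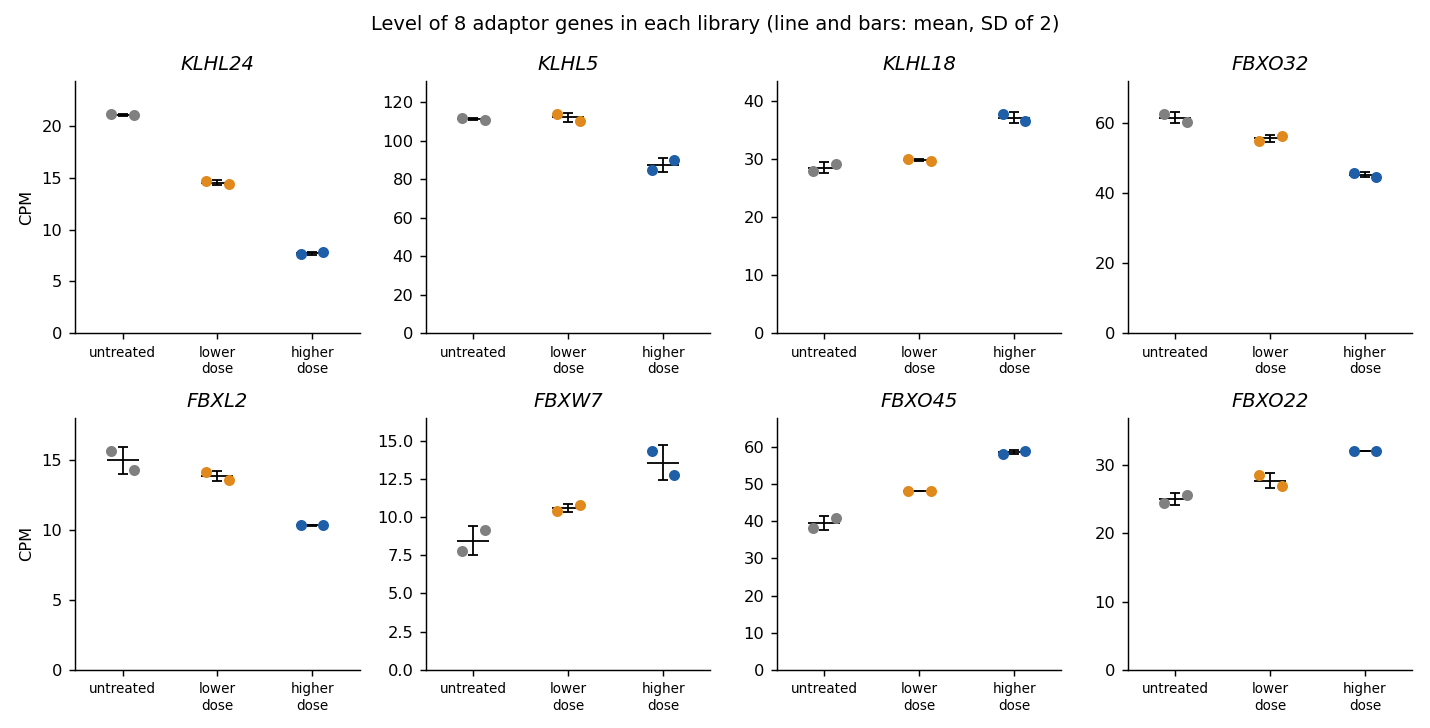
Level of 8 members in each of the 6 libraries (points, CPM, axes from 0), with the mean and SD of the 2 libraries of a condition as a line and bars. KLHL24 falls from 21.1 to 7.73 CPM on average and FBXW7 rises from 8.46 to 13.6 CPM, whereas KLHL5 and KLHL18 differ from untreated cells at the higher dose only.

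Other F-box genes rose at both doses with no difference called between the doses. FBXO48, described for the energy sensor AMPK, was at 2.89 and 3.10 CPM untreated, 4.398 and 4.356 CPM at the lower dose and 4.72 and 3.72 CPM at the higher dose. It rose by 0.54 ± 0.15 (edgeR adjusted p = 0.00294) and 0.49 ± 0.15 (adjusted p = 0.00432). The second call was lost by DESeq2 and without higher-dose replicate a (0.31). For the first, DESeq2 gave 0.54 but no adjusted p. FBXL13, at 2.40 and 2.41 CPM untreated, 3.39 and 3.11 CPM at the lower dose and 2.80 and 3.58 CPM at the higher dose, rose by 0.44 ± 0.17 (adjusted p = 0.0372) and 0.41 ± 0.17 (adjusted p = 0.0332). Neither FBXL13 call outlived the length and GC offsets or leaving out untreated replicate a (0.43 and 0.40) or b (0.44 and 0.41). The lower-dose one was also lost without lower-dose replicate a (0.37) or b (0.50), and the higher-dose one without higher-dose replicate b (0.22) and by DESeq2. DESeq2 gave FBXL13 no adjusted p at the lower dose.

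Some other abundant F-box genes rose by smaller steps. FBXW5, described for the growth regulator TSC2, had the highest level of all F-box genes, with 131.7 and 133.2 CPM untreated, 146.6 and 142.7 CPM at the lower dose and 149.4 and 153.6 CPM at the higher dose. It rose by 0.13 ± 0.03 (edgeR adjusted p = 0.00142) and 0.19 ± 0.03 (adjusted p = 7.11e-07), with no overlap between the conditions. FBXW2 rose by 0.11 ± 0.04 at each dose (adjusted p = 0.0186 and 0.00836), from 87.2 and 86.3 CPM untreated. Both its calls were lost by DESeq2, the first without untreated replicate b (0.10) or lower-dose replicate a (0.05) and the second without higher-dose replicate a (0.08). The length and GC offsets put the second at 0.21. FBXO9, described for the mTOR partners TEL2 and TTI1, rose by 0.11 ± 0.04 (adjusted p = 0.0484) and 0.19 ± 0.04 (adjusted p = 0.000208), from 45.3 and 46.7 CPM to 52.8 and 52.4 CPM. Its lower-dose call was lost in 12 of 16 settings, among them each one that left out a library, with values from 0.09 to 0.13. FBXO5, or EMI1, is an inhibitor of another ubiquitin ligase, the anaphase-promoting complex. It was at 38.9 and 40.8 CPM untreated and 46.7 and 48.1 CPM at the higher dose and rose by 0.25 ± 0.05 (adjusted p = 1.27e-05). With the length and GC offsets the rise of FBXO5 was 0.11.

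**Figure D4:**
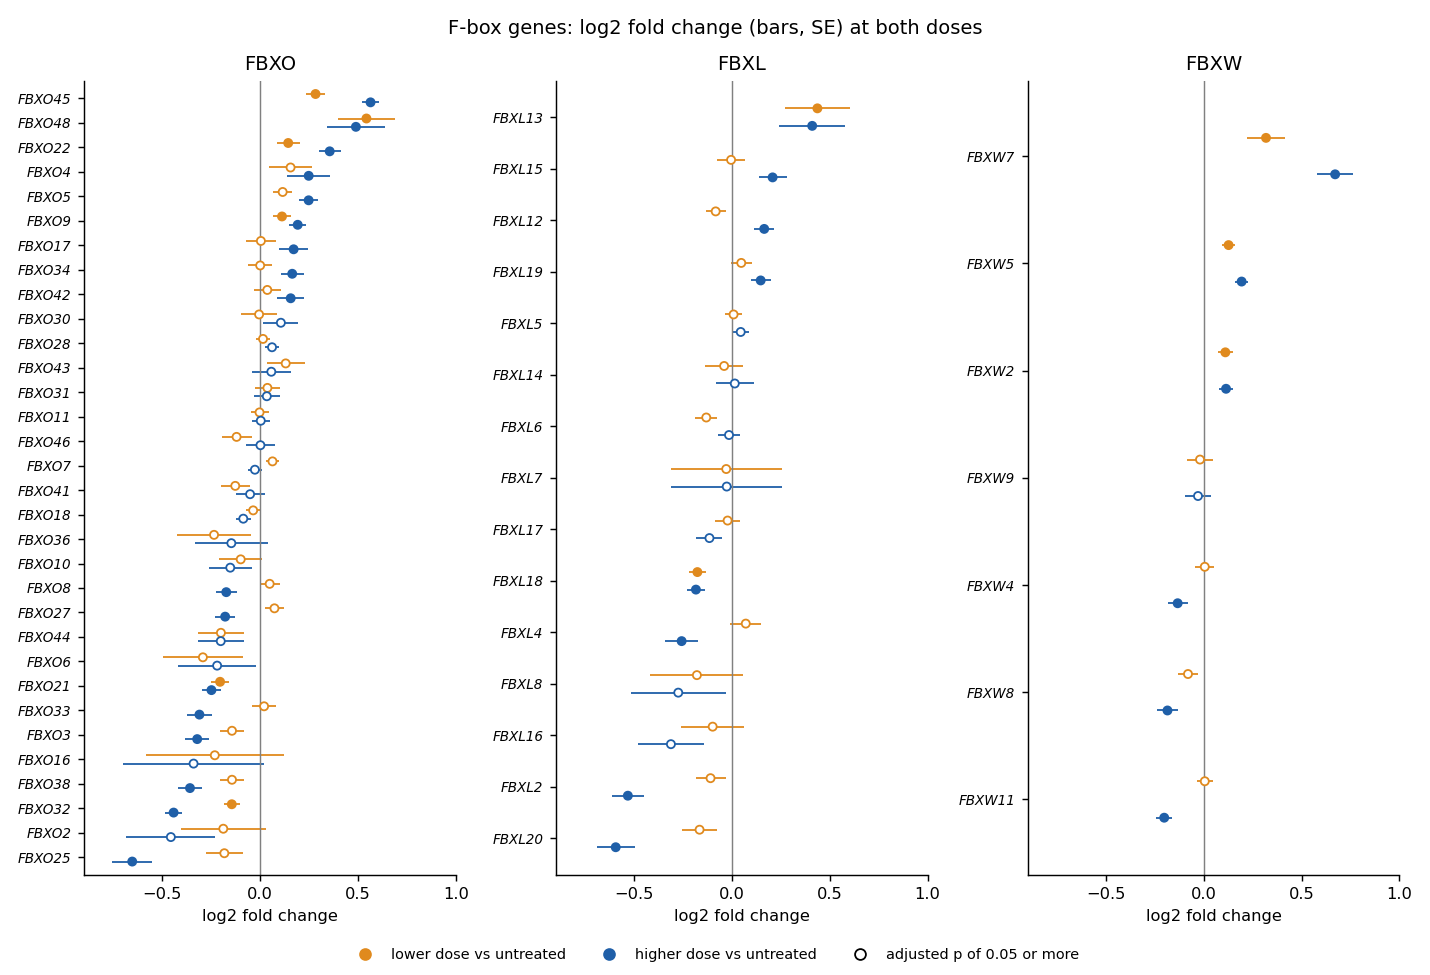
Log2 fold change (points) with its standard error (bars) for the tested F-box genes (1 of 55 is not drawn) at the lower dose (orange) and the higher dose (blue), each against untreated cells, in separate panels for FBXO, FBXL and FBXW; open points had an adjusted p of 0.05 or more. FBXW7 and FBXO45 lead the rises with 0.67 and 0.56 at the higher dose, and FBXO25, FBXL20 and FBXL2 the falls with −0.65, −0.59 and −0.53.

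FBXO32 and its closest relative FBXO25 both fell at the higher dose. FBXO32 was at 62.6 and 60.4 CPM untreated, 54.8 and 56.3 CPM at the lower dose and 45.8 and 44.7 CPM at the higher dose, with no overlap between the conditions. It fell by 0.14 ± 0.04 on the log2 scale at the lower dose (edgeR adjusted p = 0.00529), by 0.44 ± 0.04 at the higher dose (adjusted p = 5.79e-13) and by 0.30 ± 0.04 between the doses (adjusted p = 2.14e-07). The lower-dose call was lost by DESeq2, without untreated replicate a (−0.12) and without lower-dose replicate a (−0.13). FBXO25 was at 9.39 and 9.53 CPM untreated, 7.999 and 8.678 CPM at the lower dose and 6.17 and 5.86 CPM at the higher dose. It fell by 0.65 ± 0.10 at the higher dose (adjusted p = 2.38e-07), whereas the lower dose gave −0.18 ± 0.10 (adjusted p = 0.141).

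FBXL2 and its close paralog FBXL20 fell in parallel, and FBXO3, whose protein is described to mark FBXL2, also fell. FBXL2 was at 15.7 and 14.3 CPM untreated, 14.1 and 13.6 CPM at the lower dose and 10.4 and 10.3 CPM at the higher dose. FBXL20 was at 11.7 and 10.5 CPM, 9.31 and 10.4 CPM, and 7.34 and 7.34 CPM in the same order. In both genes the higher-dose libraries lay below the other 4. FBXL2 fell by 0.53 ± 0.08 on the log2 scale (edgeR adjusted p = 1.52e-07) and FBXL20 by 0.59 ± 0.10 (adjusted p = 4.8e-07) at the higher dose, and neither passed at the lower dose (−0.11 ± 0.08 and −0.17 ± 0.09). FBXO3, from 27.8 and 25.8 CPM to 21.1 and 21.7 CPM, fell by 0.32 ± 0.06 (adjusted p = 1.09e-05). At the lower dose FBXO3 gave −0.14 ± 0.06 (edgeR adjusted p = 0.0578) and passed in 4 of 16 other settings. Between the doses FBXO3 fell by 0.18 ± 0.06 (edgeR adjusted p = 0.0215), where FBXL2 and FBXL20 fell by 0.42 ± 0.08 and 0.43 ± 0.10. That FBXO3 call was lost by DESeq2, without lower-dose replicate b (−0.13) and without higher-dose replicate a (−0.16) or b (−0.20). The E-box of FBXL2 printed above was not found in the windows of FBXL20, which says only that these letters are not there.

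Other falls at the higher dose covered adaptors of unrelated substrates. FBXO38, described for the immune receptor PD-1, went from 27.4 and 27.1 CPM to 21.8 and 20.7 CPM and fell by 0.36 ± 0.06 on the log2 scale (edgeR adjusted p = 1.28e-06). FBXO33, described for the RNA-binding protein YB-1, went from 22.9 and 23.1 CPM to 18.9 and 18.2 CPM and fell by 0.31 ± 0.06 (adjusted p = 4.01e-05). FBXO21 fell at both doses, by 0.20 ± 0.05 (adjusted p = 0.000421) and 0.25 ± 0.05 (adjusted p = 9.46e-06), from 47.6 and 47.7 CPM untreated to 41.0 and 41.7 CPM and then 41.2 and 39.1 CPM. The doses overlapped in FBXO21, and only the untreated pair stood apart. FBXL18 had the same shape, falling by 0.18 ± 0.04 at each dose (adjusted p = 0.0011 and 0.000305), and by 0.10 and 0.11 with the length and GC offsets, the first of which did not pass.

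FBXL4, in which mutations cause a mitochondrial DNA depletion disease, FBXO27, an adaptor for glycoproteins, and FBXO8, which also carries a Sec7 domain, fell from the lower to the higher dose. FBXL4 was at 12.7 and 13.3 CPM untreated, 13.4 and 14.0 CPM at the lower dose and 11.03 and 10.78 CPM at the higher dose. FBXO27 was at 38.9 and 43.1, 43.1 and 43.4, and 35.3 and 37.3 CPM in that order. FBXO8 was at 34.7 and 37.3, 37.3 and 37.3, and 31.1 and 32.9 CPM. In all 3 the higher-dose pair was the lowest. Between the doses they fell by 0.33 ± 0.08 (FBXL4, edgeR adjusted p = 0.00108), 0.25 ± 0.05 (FBXO27, adjusted p = 6.84e-05) and 0.22 ± 0.05 (FBXO8, adjusted p = 0.000598) on the log2 scale. Against untreated cells the falls were 0.26, 0.18 and 0.17, and these calls were lost when 1 library was left out. Those of FBXL4 and FBXO8 were also lost by DESeq2. FBXL4 gave −0.23 without untreated replicate b and −0.24 without higher-dose replicate b, FBXO27 gave −0.10 and FBXO8 −0.12 without untreated replicate b, and −0.14 and −0.13 without higher-dose replicate a. FBXO8 shares 14.9% of its exon bases with CEP44 on the opposite strand, and whether the counting used strand is not given in the sources used here, so reads of the pair may be mixed.

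The beta-TrCP pair, adaptors for beta-catenin (CTNNB1) and the NF-kB inhibitor NFKBIA, fell at the higher dose. FBXW11, or beta-TrCP2, was at 77.2 and 76.1 CPM untreated, 73.6 and 80.2 CPM at the lower dose and 68.0 and 65.3 CPM at the higher dose, and fell by 0.20 ± 0.04 on the log2 scale (edgeR adjusted p = 2.57e-05). Its paralog BTRC, or beta-TrCP1, which has another symbol and is no member, was at 24.4 and 23.2, 22.3 and 20.8, and 18.1 and 19.3 CPM and fell by 0.35 ± 0.06 (adjusted p = 7.37e-06). In both genes the higher-dose libraries lay below the other 4. FBXW8, a partner of the scaffold CUL7, fell by 0.19 ± 0.05 (adjusted p = 0.00189), a call lost without untreated replicate a (−0.14). FBXL12 and FBXL15 were the FBXL genes that rose from the lower to the higher dose, by 0.25 ± 0.05 (adjusted p = 6.88e-05) and 0.21 ± 0.07 (adjusted p = 0.0153). FBXL15, named after its values were seen, did not pass without lower-dose replicate b (0.20) or higher-dose replicate a (0.10), or by DESeq2.

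Several well-described F-box genes did not pass the test against untreated cells at either dose. FBXO7, linked to inherited parkinsonism and to the proteasome, was at 88.6 to 95.3 CPM and differed by −0.03 ± 0.04 at the higher dose (edgeR adjusted p = 0.555). Between the doses it fell by 0.09 ± 0.04 (adjusted p = 0.0423), and this was lost without any 1 of the 4 libraries (−0.10 to −0.08). FBXO11, described for the repressor BCL6, was at 50.1 to 55.3 CPM and differed by 0.0035 ± 0.05 at the higher dose, but shares 38.5% of its exon bases with MSH6 on the opposite strand. FBXL5, the iron sensor that marks IRP2, was at 49.1 to 52.5 CPM (0.04 ± 0.04 at the higher dose). FBXL14, described for the transcription factor Snail, was at 8.30 to 10.5 CPM (0.01 ± 0.10). A p above the threshold does not show that these levels were equal, and differences larger than the standard errors could have been missed.

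Levels between genes are compared per kilobase of transcript. The length is that of the GENCODE transcript tagged as principal, or of the longest where none is tagged. Counts per gene do not tell which transcripts these cells use, so the order may depend on this choice. Of the kelch-like genes KLHL5 stood highest, at 32.6 ± 0.16 (SD, n = 2) CPM per kilobase in untreated cells, above KLHL4 at 12.3 ± 0.17 and KLHL21 at 11.9 ± 0.35. The order of KLHL4 and KLHL21 was the other way at both doses. FBXW5 led all members at 58.2 ± 0.44, followed by FBXO7 at 41.3 ± 0.38, both clear of the next gene of their group. Of the FBXO genes FBXO5 (19.6 ± 0.66) and FBXO18 (19.5 ± 0.24), which encodes the helicase now named FBH1, came next and were not told apart in untreated cells. At the higher dose FBXO5 (23.3 ± 0.48) stood above FBXO18 (18.4 ± 0.01), and at the lower dose they were at 21.2 ± 0.83 and 19.0 ± 0.07. FBXL12 (19.3 ± 0.41) and FBXL6 (18.1 ± 1.6) overlapped at the head of the FBXL genes, with FBXL18 at 16.7 ± 0.23. FBXW11 (17.7 ± 0.18) and FBXW8 (16.4 ± 0.84) followed FBXW5. FBXL6 and FBXO18 passed in no comparison, with −0.01 ± 0.06 and −0.09 ± 0.04 at the higher dose. Across all 12990 genes with a length, the higher-dose log2 fold change had a Spearman rho of −0.25 with transcript length, and across the members it was 0.04 for the 23 kelch-like and −0.0038 for the 55 F-box genes. These are descriptions across genes measured in the same 6 libraries.

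The core scaffolds of both families did not pass the test, while other parts of the machinery did. Of 14 tested scaffold genes 5 rose and 6 fell at the higher dose, with a median of −0.02, beside 28.1% up and 28.2% down over all tested genes. Of all genes with a mean of 10 CPM or more 69.0% passed, in either direction. The 3 scaffold genes that did not pass were CUL1 (−0.03 ± 0.04), CUL2 (−0.01 ± 0.04) and CUL3 (0.08 ± 0.04). CUL3 passed with the length and GC offsets (0.10). SKP1, which ties F-box proteins to CUL1, was at 403.1 and 391.6 CPM untreated and 376.0 and 372.5 CPM at the higher dose and fell by 0.09 ± 0.03 (edgeR adjusted p = 0.00659), but was at 0.01 with the offsets. The RING protein RBX1 went from 97.9 and 104.4 CPM to 126.5 and 129.9 CPM and rose by 0.34 ± 0.04 (adjusted p = 5.37e-12), or 0.20 with the offsets, and its paralog RNF7 rose by 0.39 ± 0.04. The scaffold CUL4B, at 151.3 and 151.8 CPM untreated and 106.3 and 105.9 CPM at the higher dose, fell by 0.51 ± 0.03 (adjusted p = 5.25e-20).

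Of 23 tested genes for neddylation, cullin exchange and the COP9 signalosome 9 rose and 4 fell at the higher dose, with a median of 0.05. Together that is near the 56.3% of all tested genes that passed. With the length and GC offsets 7 rose and 6 fell. No share of all genes is given for that fit. Its counts, here and in the lists that follow, therefore have no background. The NEDD8-conjugating enzyme UBE2M went from 162.1 and 162.9 CPM to 238.1 and 238.7 CPM and rose by 0.55 ± 0.03 (edgeR adjusted p = 5.18e-23). DCUN1D5, a cofactor of cullin neddylation, went from 93.9 and 94.8 CPM to 154.9 and 153.3 CPM and rose by 0.71 ± 0.03 (adjusted p = 2.38e-25). Both were also higher at the lower dose, by 0.26 ± 0.03 and 0.33 ± 0.03. Of 14 tested ubiquitin-conjugating and partner genes 9 rose and 2 fell at the higher dose (6 and 4 with the offsets), with a median of 0.15, beside 28.1% up and 28.2% down over all tested genes. Of all genes with a mean of 10 CPM or more 69.0% passed there, in either direction. UBE2D2, an enzyme that works with cullin-RING ligases, rose by 0.45 ± 0.03 (adjusted p = 8.13e-19), from 142.6 and 148.5 CPM to 200.3 and 199.1 CPM.

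Kelch and F-box proteins with other symbols, 18 of them tested, gave 3 rises and 6 falls at the higher dose (5 and 4 with the length and GC offsets), with a median of 0.00038. The number that passed without the offsets is near the background of 56.3%, which is from the fit without them. KBTBD3 fell by 0.76 ± 0.12 (edgeR adjusted p = 3.52e-07) and KBTBD7 by 0.72 ± 0.16 (adjusted p = 0.000156) on the log2 scale, from 6.62 and 7.88 CPM to 4.01 and 4.60 CPM and from 3.77 and 3.56 CPM to 2.41 and 2.04 CPM. SKP2, the F-box protein that marks the cell cycle inhibitor p27, rose by 0.17 ± 0.04 (adjusted p = 0.000468). KEAP1, the adaptor for the stress factor NRF2, did not pass (−0.02 ± 0.03) and is named after its values were seen. Of 21 tested BTB adaptors of other classes 4 rose and 9 fell (4 and 6 with the offsets), with a median of −0.08, beside the same background. The widest fall among them was that of ABTB1, at 42.6 and 40.0 CPM untreated, 35.5 and 34.6 CPM after the lower dose and 23.9 and 22.5 CPM after the higher (−0.83 ± 0.06, adjusted p = 4.13e-19).

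Messenger RNAs of proteins described as substrates moved in both directions, which says nothing of protein breakdown, since no protein was measured. Of 32 tested 7 rose and 14 fell at the higher dose, with a median of −0.07. Of all tested genes 56.3% passed there, 28.1% up and 28.2% down. With the length and GC offsets 12 substrate genes rose and 12 fell, without a share of all genes from that fit. Among those of FBXW7, JUN rose by 0.51 ± 0.04 (edgeR adjusted p = 1.51e-18) and the cyclin E genes CCNE1 and CCNE2 by 0.29 ± 0.07 and 0.34 ± 0.05. NOTCH1 fell by 0.49 ± 0.06 (−0.32 with the offsets) and NOTCH2 by 0.64 ± 0.03 on the log2 scale. MYC, named after its values were seen, stayed at 121.7 to 129.2 CPM (−0.02 ± 0.03). For FBXO22, KDM4A fell by 0.37 ± 0.05, and for the beta-TrCP pair CTNNB1 fell by 0.48 ± 0.03.

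The 19 members that were not tested were 11 kelch-like and 8 F-box genes, and 4 of them, KLHL14, KLHL33, KLHL34 and FBXO47, had no read in any library. A count of 0 allows up to 3 reads, or 0.0991 to 0.114 CPM depending on the library, for counting error alone. KLHL9, a paralog of KLHL13 that works with it and KLHL21 on Aurora B, had 2 reads in untreated replicate b and none elsewhere. The genes around KLHL9 were looked at after its values were seen, in RefSeq order on chromosome 9. Between KIAA1797, with 31 to 41 reads a library, and TUSC1, with 495 to 604, lay 23 genes with too few reads to be tested. Of these 19 had no read in any library, among them the cell cycle inhibitor CDKN2B, and CDKN2A had 1 read in all. The highest was MTAP, an enzyme of methionine salvage, with 2 to 6 reads a library. Many of the 23 are interferon genes.

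**Figure D5:**
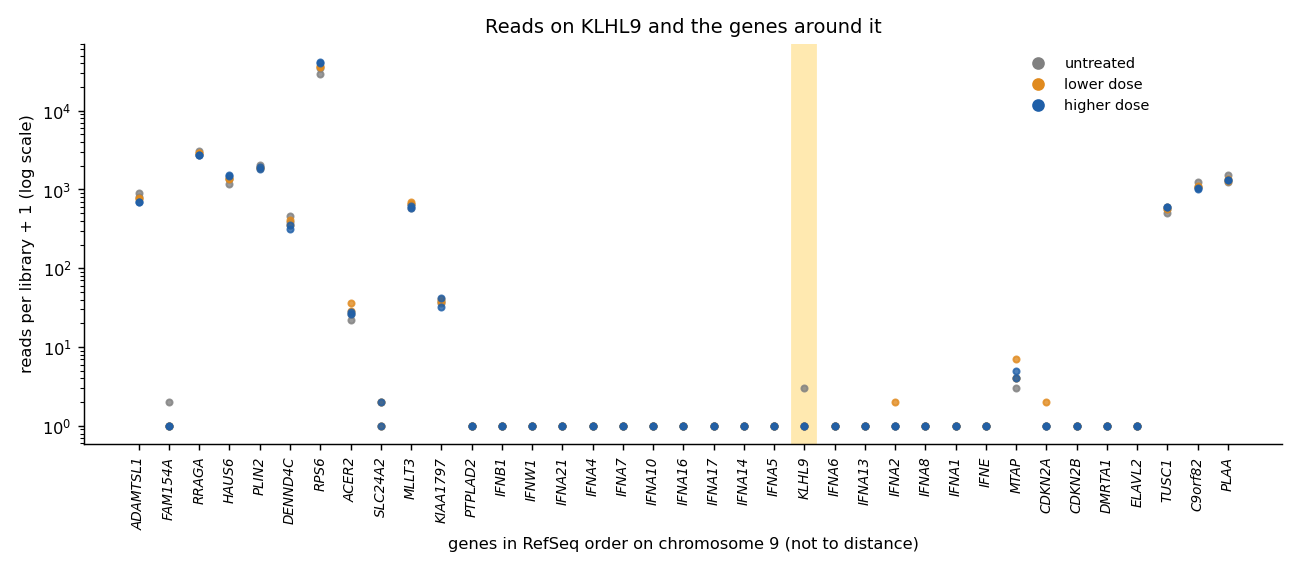
Reads per library plus 1 (log axis) on KLHL9 (shaded) and the genes on either side of it in RefSeq order, not to distance; each point is a library, coloured by condition. From PTPLAD2 to ELAVL2 no library has more than 6 reads on a gene, while MLLT3 and TUSC1 on the flanks have at least 580 and 495.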

How the data were processed

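Ribosome-bound polyadenylated RNA of 6 libraries, 2 for each of 3 conditions, was measured by sequencing. The authors deposited whole-number read counts per gene symbol for each library. Per the submitters' processing notes, CASAVA 1.8.1, TopHat 1.4.0, HTSeq and the build hg19 were used; the annotation and strand setting: not given in the sources used here. The deposited counts were used as they are, and summary lines that name no gene (9.40 to 10.2% of a library) were left out. Depth was 26255079 to 30280322 reads on genes per library, and intervals and floors cover counting error only.

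Genes were filtered with filterByExpr and tested with edgeR 4.0.16 (quasi-likelihood test, robust, TMM factors 0.997 to 1.003) in R 4.3.3, in 1 model of all 6 libraries with 3 residual degrees of freedom. The 13548 tested genes were adjusted together by the Benjamini-Hochberg method at 0.05. The 3 comparisons share libraries: both doses are set against the same untreated pair. CPM are edgeR's scaled counts, with TMM-adjusted totals. The biological coefficient of variation was 1.79%, and replicate pairs differed by more than sampling noise (chi-square per degree of freedom 1.52 to 1.98), so none was counted as 1 library.

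The members, the lists of other genes and the tests were chosen with earlier results of these data known. Named members are, in each comparison, the 12 largest called changes of each family, all called changes of 1.5-fold or more, the 3 highest levels per length in each of KLHL, FBXO, FBXL and FBXW, and a list of well-described adaptors; exceptions are stated. Of the F-box members, 1 is counted but its own values are not reported here. Alternatives were DESeq2 1.42.0, other scalings and filters, offsets for length and GC content (12990 genes), a replicate block, only the groups compared, and leaving out each library. Lengths and exon overlaps come from GENCODE 29 (GRCh38) and promoter windows from RefSeq (GRCh38), matched by symbol. Protein sequences were not used here.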

Additional observations from a re-analysis of the deposited data

How the results depend on the processing

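None of the called members changed sign in any of the 16 other settings. Of 2140 values of named members compared with the reported ones, 2015 kept their side of the threshold, 102 no longer passed and 23 newly passed. At the higher dose 6 of 8 kelch-like and 17 of 32 F-box calls were kept in every setting, at the lower dose 1 of 2 and 5 of 12, and between the doses 3 of 6 and 11 of 20. FBXO48 at the lower dose is counted there as kept, though DESeq2 gave it no adjusted p. DESeq2 gave fewer calls, and the cause was not tested: 1 kelch-like and 5 F-box genes at the lower dose, 19 F-box genes at the higher dose, and 3 kelch-like and 13 F-box genes between the doses. Offsets for length and GC content gave 4 kelch-like calls at the lower dose. Leaving out each library in turn, with the lone library assumed to vary like the other groups, gave 1 to 3 kelch-like and 7 to 13 F-box calls at the lower dose, 7 to 8 and 23 to 31 at the higher dose, and 3 to 6 and 13 to 20 between the doses. The lowest counts came without lower-dose replicate a (1 and 7, and 1 also without untreated replicate a), without higher-dose replicate a (23, and 3 between the doses) and without lower-dose replicate b (3 and 13). Differences between a and b correlated at −0.045, 0.0025 and −0.035 over 13548 genes, so no shift shared by a letter was seen. Whether the letters pair the libraries cannot be told from this. A fit with a replicate block gave 2 and 10 calls at the lower dose, 8 and 31 at the higher dose and 6 and 19 between the doses. The share of all genes that passed is not given for any of these settings, so the counts cannot be set against a background. Genes with a few reads per library, such as KLHL3, KLHL13 and KLHL23, are limited by depth.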
